A study of Mus musculus with 4 samples.

Results

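The gene-poor interval between Igfbp5 and Tns1 on mouse chromosome 1 was examined in 4 tiled Capture-C libraries, all from mouse embryonic stem cells (mESCs) of the E14 line. It spans 72928001 to 73926400 in genome build mm9 (998.4 kb) and comprises 156 bins of 6.4 kb, and its members are the 12246 bin pairs with both bins inside, of 155961 pairs in the captured region of chromosome 1 (72083201 to 75654400, 558 bins). Target coordinates for chromosome 1 were not given in the sources used here, and the region is called captured because its bins are densely filled in all 4 maps. The rule for its members uses position only, although the interval was picked with earlier results of these data known. In tiled Capture-C, crosslinked chromatin is cut with MboI and religated, ligation products of chosen regions are enriched with oligonucleotides, and the number of read pairs joining 2 sites reports how often these were ligated.

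All cells derived from an E14 clone with a double knockout of CTCF sites made in an earlier study, and all carried TetO and LacO operator arrays on chromosome 15, the fluorescent repressors that bind them, and RAD21, a subunit of cohesin, fused homozygously to HaloTag and an FKBP degron. Line 1A2 had no 3xCTCF sites beside the arrays. Line 1F4 also lacked these sites but kept the promoters of the resistance cassettes. Line 1B1 had convergent 3xCTCF sites, and 1B1 -cohesin was the same line after 500 nM dTAG-13, which degrades the tagged RAD21, for 2 h. Each line was 1 clone, each group had 1 library, and the arrays lie on another chromosome. Differences among the 3 untreated lines on chromosome 1 cannot be split into genotype, clone and culture, and are called differences between clones below. No test across replicates was possible, and the degraded library was described against the range of the 3 untreated ones. Errors below are Poisson counting errors of the reads and leave out variation between cultures.

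Cohesin rings are thought to reel in chromatin and enlarge loops until stopped, often by the DNA-binding protein CTCF. CTCF sites that face each other, with the motif on the plus strand at the upstream anchor and on the minus strand at the downstream anchor, are known to flank many loops and topologically associating domains (TADs) in mESCs. Long intervals with few genes often form 1 domain with boundaries close to the genes at their edges. In GENCODE annotation of this build, only Tnp1 (73061657 to 73062473, minus strand), which encodes a protein that replaces histones in spermatids, and a 5S rRNA gene (73810284 to 73810409) lay inside. This is 1 protein-coding gene in 0.9984 Mb, against 65 in the 3.5712 Mb of the captured region. Upstream lay Igfbp5 (72904506 to 72921458, minus strand) and Igfbp2 (72871077 to 72899048, plus strand), both genes of secreted proteins that bind insulin-like growth factors. Downstream lay Tns1 (73956805 to 74171021, minus strand), the gene of a focal adhesion protein, and then Rufy4. A newer RefSeq annotation (GRCm38.p6) lists 18 genes between Igfbp5 and Tns1, of which 13 are long non-coding RNAs (lncRNAs), 3 are pseudogenes, 1 is a miRNA and 1 is Tnp1. Promoter sequences of 11 of the 18 were given, and each matched NCBIM37 chromosome 1 exactly once, which placed 12 transcription starts in 10 bins of the interval.

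The sequences that bear most directly on the maps are matches to a CTCF-like core, CCNNNAGGNGGC, close to the edges and contact anchors described below. Both strands were searched. The captured region held 124 matches in 105 of 558 bins (18.8%), and the interval held 13 matches in 12 of 156 bins (7.69%), 7 on the plus strand and 6 on the minus strand. Each is shown 5′ to 3′ on its own strand with 14 reference bases (NCBIM37) on either side and the 12-base core in capitals. A match is a description of the reference sequence and not a measured CTCF site.
Igfbp5 edge, chr1:72912569-72912580, plus strand, inside Igfbp5: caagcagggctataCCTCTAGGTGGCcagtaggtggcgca
Igfbp5 edge, chr1:72912580-72912591, plus strand, inside Igfbp5: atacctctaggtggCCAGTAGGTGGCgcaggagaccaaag
First bins of the interval, chr1:72938745-72938756, plus strand: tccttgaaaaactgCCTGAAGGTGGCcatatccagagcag
Beside the 67 kb anchor, chr1:72990496-72990507, minus strand: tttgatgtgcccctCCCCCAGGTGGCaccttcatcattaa
Inside the 394 kb anchor, chr1:73322042-73322053, minus strand: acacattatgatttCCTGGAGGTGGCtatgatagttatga
Beside the 790 kb anchor, chr1:73721799-73721810, plus strand: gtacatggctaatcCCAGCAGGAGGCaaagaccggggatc
Beside the 944 kb anchor, chr1:73875251-73875262, minus strand: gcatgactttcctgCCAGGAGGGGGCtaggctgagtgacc
Tns1 edge, chr1:73931953-73931964, minus strand: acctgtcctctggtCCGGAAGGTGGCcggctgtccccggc
Tns1 edge, chr1:73932165-73932176, minus strand: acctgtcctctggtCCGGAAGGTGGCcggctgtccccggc
The cores at the Igfbp5 edge overlapped by 1 base and pointed into the interval. The cores at the Tns1 edge were identical over the 40 bases shown, lay 212 bases apart and also pointed into the interval, so that the outermost matches at both edges faced each other.

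The maps held 435646 reads inside the interval in 1A2 and 557787 in 1F4, 433809 in 1B1 and 478229 in 1B1 -cohesin, which was 25.9% to 26.5% of the reads in the captured region of chromosome 1. Between 0.923% and 2.54% of the interval's bin pairs had no read, and no bin was empty. The bins were unequal. Median reads per bin were 5108, 6413, 5248.5 and 5238 in the 4 libraries. However, 5 bins held less than 0.35 of the region's median in at least 1 library, among them 73337601 to 73344000, with 522 to 641 reads, and 73913601 to 73920000, with 363 to 490. Another 6 bins had ample reads but a low distal contact level, below 0.7 of the level expected at separations of 64 to 384 kb on average over the untreated lines; these are called pale bins below. The clearest were the neighbours 73689601 to 73696000 and 73696001 to 73702400, at 0.408 to 0.479 in the 4 libraries. These 2 bins spent 1736 to 2209 reads on each other. They appear as blue stripes in all 4 maps, the degraded one included, and results that turn on them or on low-coverage bins are given below without them as well.

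**Figure D1:**
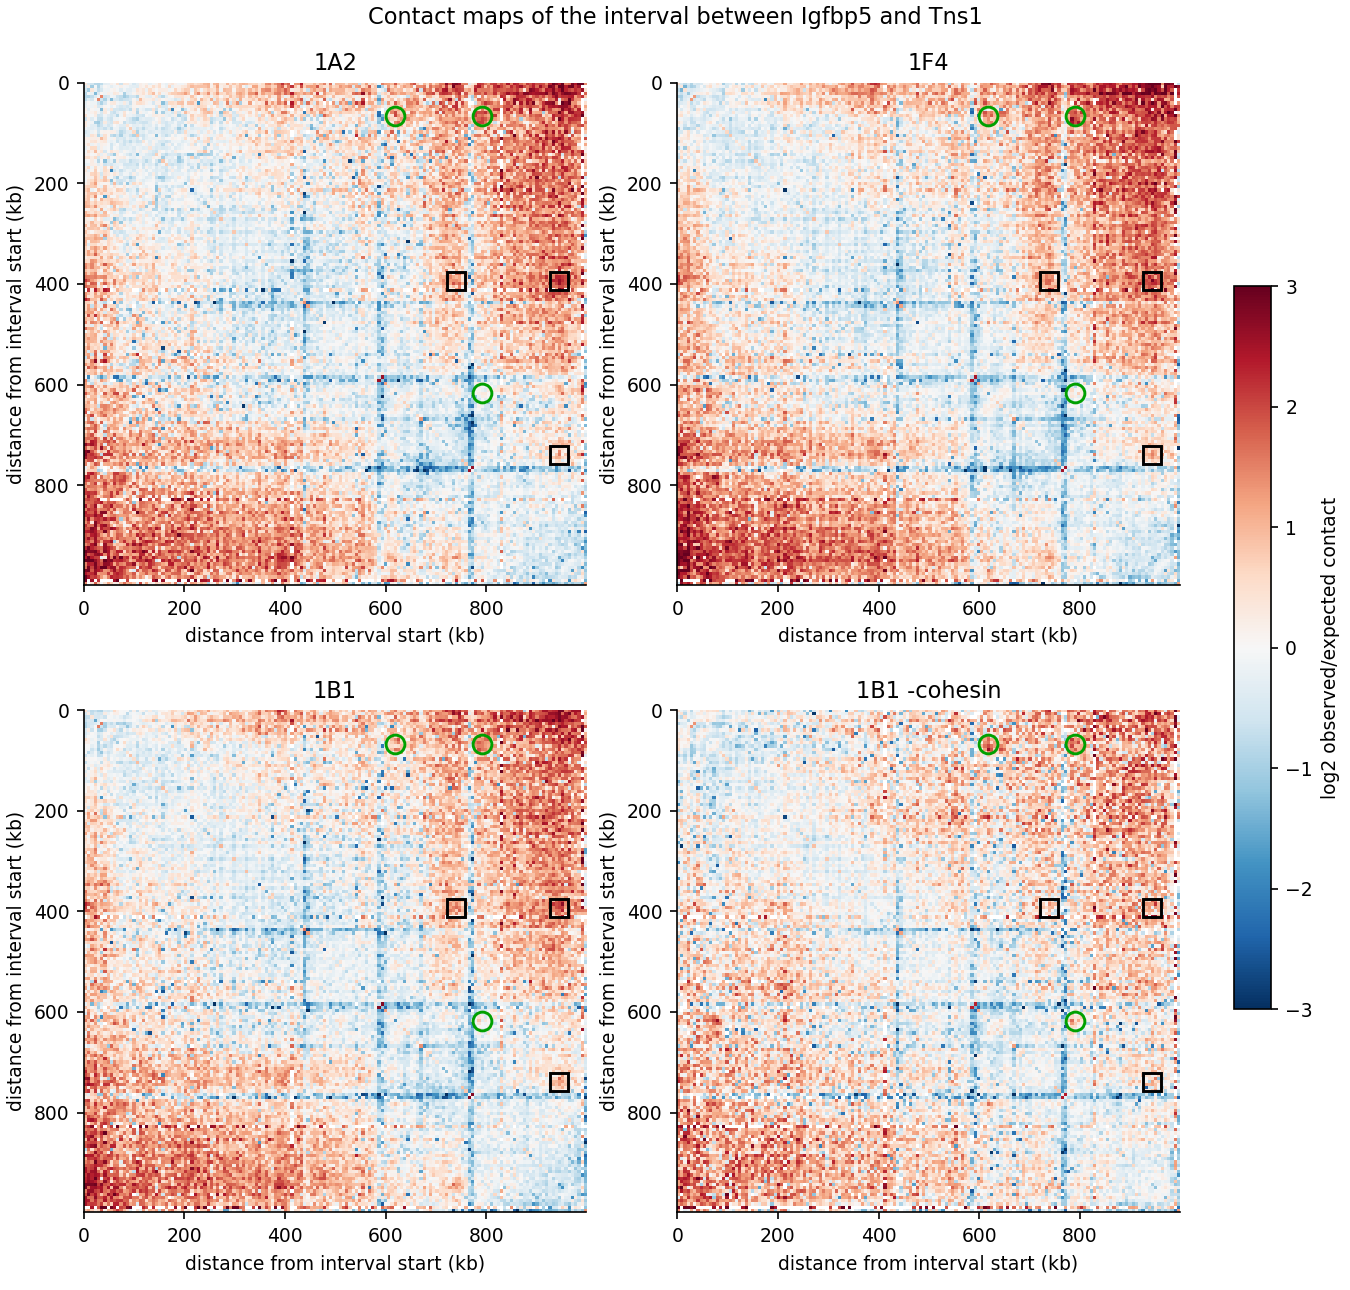
Contact maps of the interval in 1A2, 1F4, 1B1 and 1B1 -cohesin, as log2 observed/expected contact per bin pair, with both axes in kb from the interval start (the Igfbp5 side). Black squares mark the pairs joining the 394, 739 and 944 kb anchors and green circles those joining the 67, 618 and 790 kb anchors; the far corner is dark red in the 3 untreated maps and paler in 1B1 -cohesin.

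Distant pairs inside the interval were in contact more often than pairs at the same separation elsewhere and close pairs less often, and both departures were smaller after cohesin degradation. Contact was expressed as observed/expected, the balanced value of a bin pair divided by the mean at its separation over the captured region of chromosome 1. Over the 10716 interval pairs 60 to 960 kb apart, mean observed/expected was 1.58 ± 0.0067 in 1A2 and 1.67 ± 0.0067 in 1F4, 1.52 ± 0.0065 in 1B1 and 1.42 ± 0.0074 in 1B1 -cohesin. The degraded library was the lowest of the 4, although its distance to 1B1 (log2 ratio -0.096 ± 0.0097) was smaller than that between the clones 1B1 and 1F4 (-0.14 ± 0.0085). Without low-coverage and pale bins the means were 1.63, 1.72, 1.55 and 1.45. In the rest of the region the mean was 0.888, 0.871, 0.900 and 0.919 in the same order.

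The modest average hid opposite shifts at short and long range. At 25 to 100 kb, observed/expected in the interval was 0.807, 0.808 and 0.811 in the untreated lines and 0.908 in 1B1 -cohesin. At 100 to 250 kb it was 1.01, 1.02 and 1.00 against 1.10. At 250 to 500 kb it was 1.46, 1.53 and 1.41 against 1.36, and at 500 to 960 kb 2.52, 2.76 and 2.38 against 1.97. The degraded library was thus above all 3 untreated ones in both short bands and below all 3 in both long bands. Untreated cells had fewer short-range contacts and 2.38 to 2.76 times as many of the longest-range contacts as the region's average at that separation.

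Contact decayed more slowly with distance inside the interval than outside it, and the decay was steeper in 1B1 -cohesin. After scaling every library to the same chromosome 1 sum beyond neighbouring bins, the slope of log10 contact on log10 separation from 50 to 500 kb was -0.501 ± 0.006 in 1A2 and -0.489 ± 0.0055 in 1F4, -0.484 ± 0.0058 in 1B1 and -0.776 ± 0.0075 in 1B1 -cohesin. The untreated slopes lay close to each other, and the difference between the degraded library and 1B1 was -0.292 ± 0.0094. Over 50 to 900 kb the slopes outside the interval were -1.12, -1.17 and -1.07 against -1.08, so that the degraded library lay within the untreated range there, whereas inside they were -0.400, -0.376 and -0.392 against -0.620. Over 50 to 500 kb the slopes outside were -1.04, -1.06 and -0.980 against -1.11, so that 1B1 -cohesin was the steepest there too. Over this range the degraded interval still decayed less steeply than any untreated library did outside it. Over 25 to 250 kb the slopes were -0.642, -0.658 and -0.630 against -0.925 inside. Outside they were -0.909, -0.928 and -0.875 against -1.14, so that over this range, too, the decay was steeper in 1B1 -cohesin both inside and outside. Here the slope of the degraded interval lay within the range of the untreated slopes outside. The untreated curve was nearly flat at long range: mean scaled contact in 1A2 was 11.5 at 250 to 500 kb and 10.1 at 500 to 960 kb inside the interval, against 7.04 and 3.09 outside.

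Scaled contact, which does not depend on the expected value, showed where the difference lay. Relative to 1B1, the degraded library had a log2 ratio of 0.35 ± 0.01 in the shortest band inside the interval. The ratio was -0.17 ± 0.012 from 100 to 250 kb, -0.51 ± 0.014 from 250 to 500 kb and -0.63 ± 0.019 beyond. Outside, the ratios in the same bands were 0.14, -0.35, -0.45 and -0.28. The comparison of 1B1 with 1A2 gave -0.054, -0.022, 0.0071 and 0.0033 inside, and that of 1B1 with 1F4 gave -0.089, -0.035, -0.039 and -0.050. Both share the 1B1 library with the first comparison. In the longest band, the ratio lay farther below 0 inside the interval than outside it, whereas at 100 to 250 kb it lay closer to 0. The outside value in the longest band depends on the reference, since 1B1 itself lay above 1A2 by 0.12 and above 1F4 by 0.23 there.

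**Figure D2:**
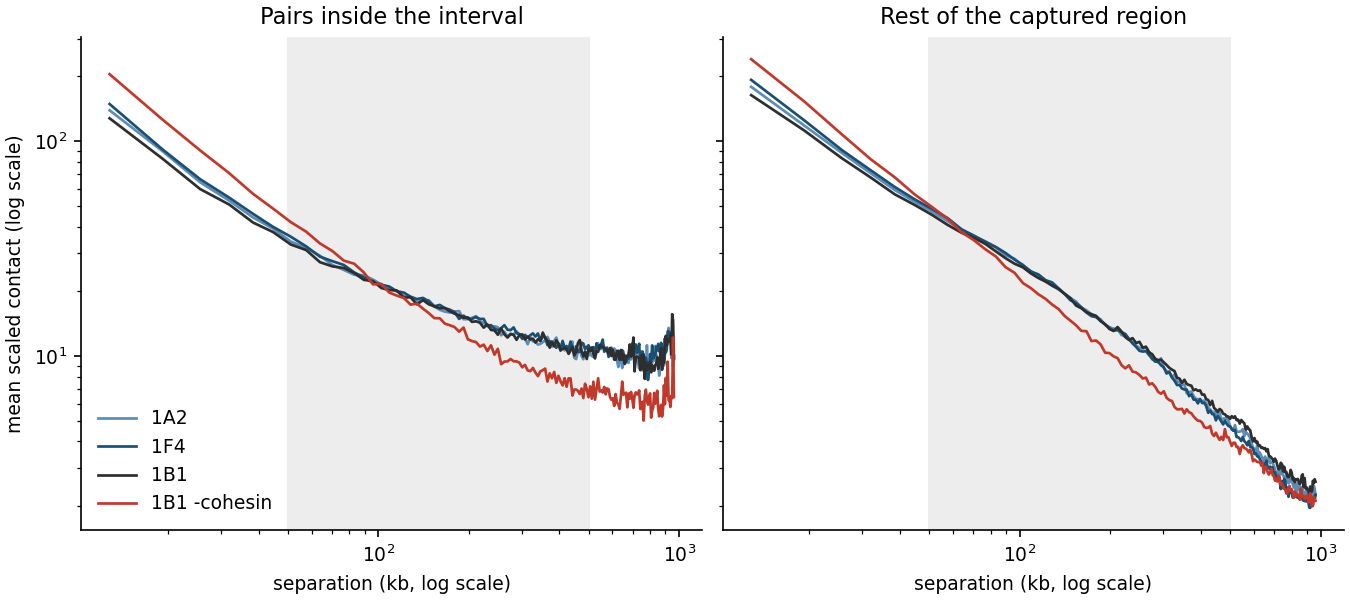
Mean scaled contact against separation (both log scales) for pairs inside the interval (left) and for all other pairs of the captured region (right), 1 line per library; the grey band marks 50 to 500 kb, over which the slopes were taken. The 3 untreated lines overlap and flatten beyond about 250 kb inside the interval, whereas 1B1 -cohesin starts higher, crosses them near 100 kb and runs below them.

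The interval was bounded by deep insulation minima at both edges and subdivided by shallow ones, and all of these were weaker after degradation. Insulation of a bin is the log2 mean contact across it in a square of 20 by 20 bins, relative to the region's mean, so that a boundary is a minimum. Boundaries were called in 1A2 and 1F4 alone as local minima with a rise of at least 0.3 on both sides, sought over 30 bins. Of 518 bins with a score, 13 were boundaries (2.51%), and 4 of these lay in the interval or within 10 bins of its ends.

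The upstream edge lay at 72915201 to 72921600, in the bin with the transcription start of Igfbp5 and next to the bin with the paired plus-strand cores. Its insulation was -1.24 ± 0.025 in 1A2 and -1.38 ± 0.023 in 1F4, -1.22 ± 0.024 in 1B1 and -0.66 ± 0.021 in 1B1 -cohesin. The downstream edge lay at 73926401 to 73932800, the bin with the identical minus-strand cores, and the interval ends 30.4 kb short of Tns1. Values there were -1.33 ± 0.044, -1.56 ± 0.042, -1.38 ± 0.046 and -0.66 ± 0.04. The degraded library still had minima at the Tns1 edge and the Igfbp5 edge, but both were shallower than in 1B1. Called in single libraries, the Igfbp5 minimum lay 1 bin further in, in 1B1 as well as in 1B1 -cohesin. At the bins named above, the difference between 1B1 -cohesin and 1B1 was 0.57 ± 0.032 at the Igfbp5 edge and 0.71 ± 0.061 at the Tns1 edge. The largest difference between clones at these bins was -0.23 ± 0.061, for 1F4 against 1A2 at the Tns1 edge.

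Inside the interval, the first boundary lay at 73337601 to 73344000, with -0.36, -0.32 and -0.29 in the untreated lines and 0.01 in 1B1 -cohesin (difference to 1B1, 0.30 ± 0.024). The second lay at 73638401 to 73644800, with -0.40, -0.42 and -0.34 against -0.12 (0.23 ± 0.029). Neither had a CTCF-like core within 1 bin, whereas both edges did; a core lay within 1 bin of 22.4% of the interval's bins and 42.7% of the region's. The first is itself a low-coverage bin. Called in single libraries, it stood at 73324801 in 1A2 and 73337601 in 1F4 and was not called in 1B1. Without low-coverage and pale bins the 2 inner minima read -0.32, -0.27, -0.24 and 0.06, and -0.27, -0.28, -0.24 and 0.04, so that the degraded library stayed the highest. Over all 13 boundaries of the region the median difference between 1B1 -cohesin and 1B1 was 0.23, with 11 of the 13 higher in 1B1 -cohesin, and over the 4 described here it was 0.43 with 4 higher. Insulation values were also higher in general, with a median difference of 0.13 and an SD of 0.23 over all 156 bins of the interval. Between clones, the medians over the 4 boundaries were 0.12 for 1B1 against 1F4, with 4 of 4 higher in 1B1, 0.036 for 1B1 against 1A2 and -0.085 for 1F4 against 1A2.

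Insulation did not weaken everywhere. With smaller squares of 10 by 10 bins, 2 minima passed the calling rule in the degraded library alone. At 73036801 to 73043200 insulation was -0.21, -0.22 and -0.20 in the untreated lines and -0.42 ± 0.029 in 1B1 -cohesin. At 73542401 to 73548800 it was -0.36, -0.29 and -0.39 against -0.54 ± 0.028. The untreated lines dipped at or near both sites as well, but less deeply. Near the second site they were lowest at 73529601 to 73536000 (-0.40, -0.38 and -0.45 against -0.54). Another minimum of the degraded library, at 73683201 to 73689600, was shallower than in the untreated lines (-0.50, -0.56 and -0.58 against -0.41). The first 2 bins were singled out after their values were seen. In these 2, the degraded library was the lowest of the 4, and it remained so without low-coverage and pale bins (-0.42 and -0.47). The 10 bins with transcription starts did not go 1 way. With squares of 10 bins, 1B1 -cohesin lay above the untreated range in 7, within it in 1 and below it in 2, and with squares of 20 bins the counts were 6, 1 and 3. Of all 156 bins, 76.3% lay above and 18.6% below with squares of 10 bins, and 70.5% above and 23.1% below with squares of 20 bins, so the start bins were near the background. The bin with the Tnp1 start (73062401 to 73068800) depended on the square: it had -0.21, -0.23 and -0.20 in the untreated lines against -0.22 with 10 bins, but 0.051, 0.056 and 0.059 against -0.0997 with 20 bins. The bin of Gm31047, near the Igfbp5 edge, was lower in 1B1 -cohesin with either square (-0.09, -0.10 and -0.14 against -0.25 with 10 bins).

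The bins of the 2 lncRNA starts nearest Tns1 were far less insulated in 1B1 -cohesin. With squares of 10 bins, insulation at Gm29183 was -0.45, -0.50 and -0.55 against -0.03, and at 6030407O03Rik -0.80, -0.86 and -0.91 against -0.08. Both squares reach across the Tns1 edge and hold the low-coverage bin at 73913601. Without low-coverage and pale bins the values were -0.16, -0.17 and -0.22 against 0.23 at Gm29183, and -2.12, -2.48 and -2.21 against -1.16 at 6030407O03Rik, so that the levels moved but the degraded library stayed the highest.

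**Figure D3:**
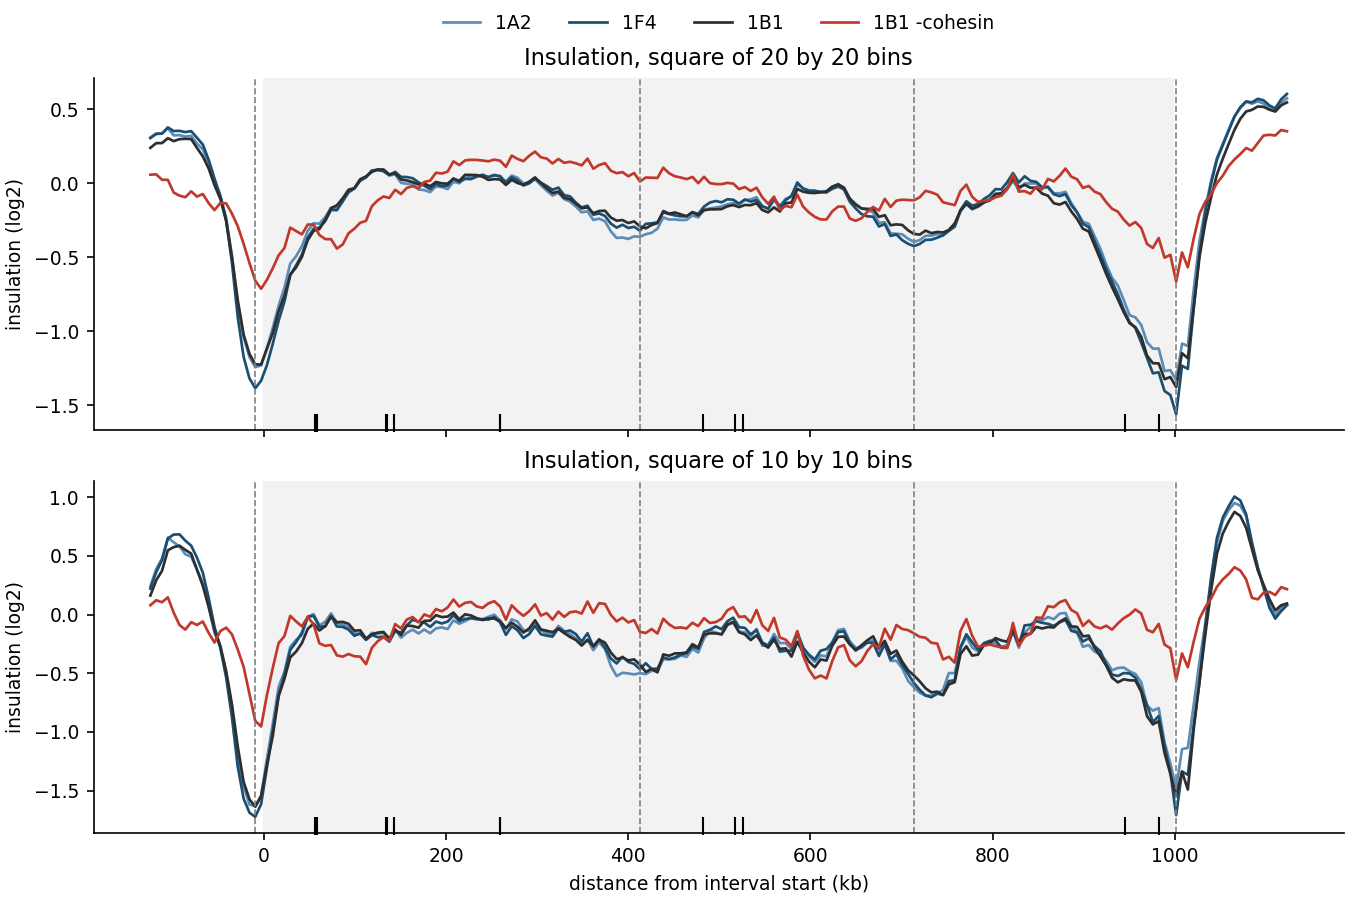
Insulation along the interval (grey) and its margins in squares of 20 by 20 (top) and 10 by 10 bins (bottom), 1 line per library, against distance from the interval start in kb. Dashed lines mark the 4 boundaries and ticks the transcription starts; at all dashed lines 1B1 -cohesin lies above the untreated lines, whereas at the bins starting at 73036801 and 73542401, between dashed lines, it lies below them.

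The inner boundaries divide the interval into 3 subdomains: the first from 72928001 to 73337600 (409.6 kb, with Tnp1), the second from 73337601 to 73638400 (300.8 kb, with the start of the lncRNA Pinc) and the third from 73638401 to 73926400 (288 kb). Relative to the value expected at each separation, contact was highest between the first and the third, which are not neighbours. It had a mean observed/expected of 2.55 ± 0.02 in 1A2 and 2.79 ± 0.021 in 1F4, 2.42 ± 0.02 in 1B1 and 1.95 ± 0.021 in 1B1 -cohesin (log2 ratio to 1B1, -0.31 ± 0.02). The clones spanned 2.42 to 2.79 and the degraded library lay below this range. The first with the second subdomain had 1.25, 1.303 and 1.21 against 1.36, above the untreated range (0.16 ± 0.015). The second with the third had 1.38, 1.42 and 1.33 against 1.26 (-0.074 ± 0.022).

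Within the subdomains the levels were lower and closer to each other. The first had 1.18, 1.21 and 1.17 against 1.12, the second 0.954, 0.960 and 0.945 against 0.947, and the third 0.955, 0.966 and 0.921 against 1.03. Relative to the expected value, 1B1 -cohesin was thus below the untreated lines between the 2 ends of the interval, between the second and the third and within the first subdomain, and above them inside the third and between the first and second. Inside the second its log2 ratio to 1B1 was 0.0025 ± 0.026. Without low-coverage and pale bins the blocks kept these directions against 1B1, but the third then had 1.02, 1.05 and 1.00 against 1.06 ± 0.014, within counting error of 1F4.

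The expected value beyond about 100 kb was itself lower in 1B1 -cohesin, and without division by it no block was clearly higher. The log2 ratio of scaled contact to 1B1 was -0.68 ± 0.018 between the first and the third subdomain, -0.40 ± 0.019 between the second and the third and -0.16 ± 0.014 between the first and second. It was -0.22 ± 0.014 within the first, -0.13 ± 0.023 within the second and 0.010 ± 0.03 within the last subdomain. On this scale contact was higher within subdomains (20.1, 19.5 and 19.8 in 1A2) than between the first and the third (10.6), which lie farther apart. The contact between the first and the third was the most reduced block on both scales.

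Whether the inner boundaries separate contacts depended on how separation was handled. Over pairs 60 to 400 kb apart pooled together, the log2 ratio of observed/expected within subdomains to that between neighbouring subdomains was -0.066 ± 0.013 in 1A2 and -0.070 ± 0.012 in 1F4, -0.053 ± 0.012 in 1B1 and -0.21 ± 0.015 in 1B1 -cohesin. Pairs between subdomains lie farther apart, where the interval's observed/expected was higher. With both classes weighted equally at each separation, a choice made after seeing the data, the ratio was 0.31 ± 0.014, 0.32 ± 0.013 and 0.28 ± 0.014 in the untreated lines and -0.020 ± 0.017 in 1B1 -cohesin. The boundaries were called in 1A2 and 1F4 as minima of contact across them, so only the 1B1 value is independent of that call. In 1B1 contact at matched separation was higher within than across the inner boundaries, and in 1B1 -cohesin it was not. Without low-coverage and pale bins the ratios were 0.30, 0.31 and 0.27 against -0.047 ± 0.015. By either measure 1B1 -cohesin was the lowest and the 3 untreated lines lay close together.

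**Figure D4:**
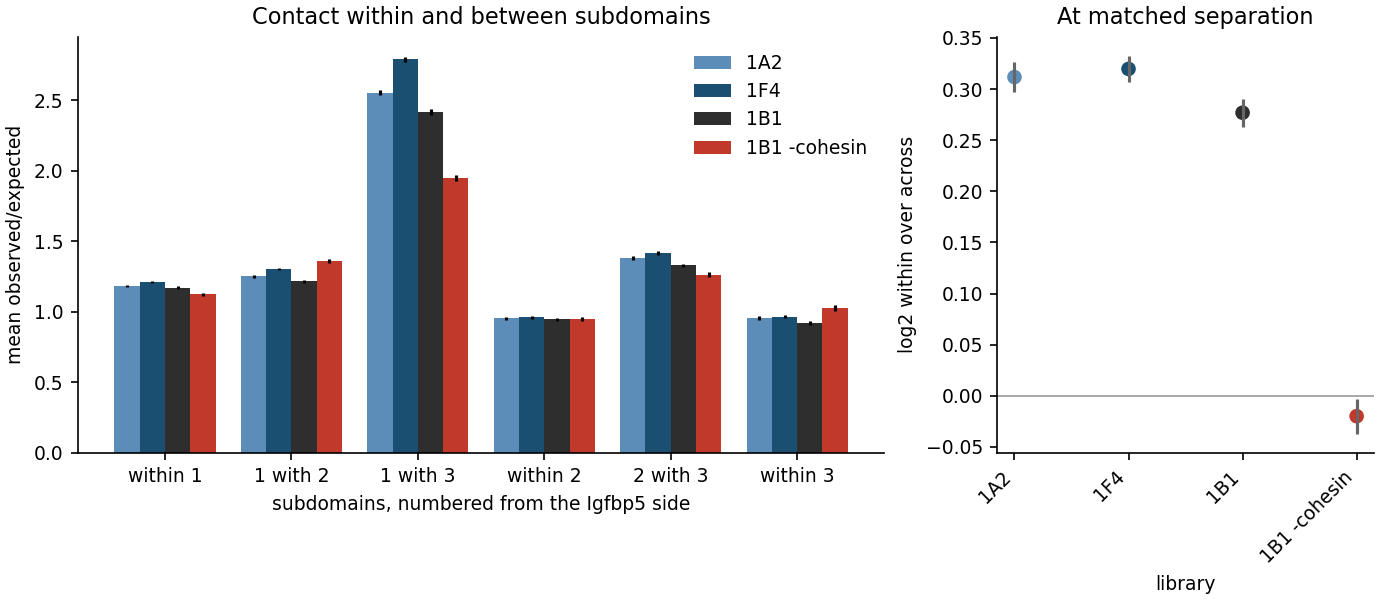
Left, mean observed/expected contact within and between the 3 subdomains (bars from 0, whiskers are counting errors) in the 4 libraries; contact of the first with the third is the highest and lowest in 1B1 -cohesin. Right, log2 ratio of contact within subdomains to contact across their borders at matched separation, which is 0.28 to 0.32 in the untreated lines and near 0 in 1B1 -cohesin.

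Focal contacts, small patches brighter than their surroundings, were sought as windows of 3 by 3 bins with at least 100 reads and a mean observed/expected at least 1.5 times that of the ring around it (the 11 by 11 bins outside the central 5 by 5) in both 1A2 and 1F4. Of 14996 windows of the region with enough reads, 54 were called (0.36%), and 8 of these lay in the interval, of 5849 with enough reads there. Their median window/ring was 1.62 in 1A2 and 1.74 in 1F4, 1.58 in 1B1 and 1.69 in 1B1 -cohesin. Of the 8, 4 were lower in 1B1 -cohesin than in 1B1, against 30 of the 54 in the region (55.6%), so the interval's contacts did not differ in 1 direction as a group. Their median log2 ratio was 0.019. With low-coverage bins left out and contacts called again, which replaced some of the windows, the median over the new calls was -0.17. 1A2 and 1F4 chose the windows, so their own ratios are no support for the contacts. Anchors are named by the distance of their bin's centre from the interval start.

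The 8 were not alike. One set of contacts joined 3 anchors at 394 kb (73318401 to 73324800), 739 kb (73664001 to 73670400) and 944 kb (73868801 to 73875200). The 394 kb anchor holds a minus-strand core, the 944 kb anchor holds the start of the lncRNA Gm29183 and has a minus-strand core just beyond its end, and the 739 kb anchor has no core within 1 bin. The contact of 739 with 944 kb was among the 6 strongest calls. Its window held 177 reads in 1A2 and 254 in 1F4, 227 in 1B1 and 109 in 1B1 -cohesin, with a window/ring of 1.55 ± 0.13, 1.78 ± 0.12, 1.96 ± 0.14 and 1.67 ± 0.18. The degraded library lay within the untreated range here, with a log2 ratio to 1B1 of -0.23 ± 0.19.

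The other pairs of this set were picked up with low-coverage bins left out, since the original call beside 394 kb (406 with 739 kb) touches the low-coverage bin at 73337601. At 394 with 739 kb, the window held 164, 219, 180 and 67 reads, and its observed/expected was 2.66 ± 0.21, 2.90 ± 0.2, 2.60 ± 0.2 and 1.70 ± 0.21. At 394 with 944 kb the reads were 237, 252, 234 and 72, and observed/expected was 4.91 ± 0.33, 4.43 ± 0.29, 4.24 ± 0.29 and 2.29 ± 0.28. In both, the degraded library lay below all 3 untreated lines by several counting errors, with log2 ratios to 1B1 of -0.61 ± 0.21 and -0.89 ± 0.2. Window/ring at 394 with 944 kb was 1.70, 1.49 and 1.71 against 1.20, so that this patch also stood out less from its surroundings. Its percentile among the 68 interval windows at that separation was 98.5 in every untreated line and 89.7 in 1B1 -cohesin.

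The other set joined anchors at 67 kb (72992001 to 72998400), 618 kb (73542401 to 73548800) and 790 kb (73715201 to 73721600), and its pairs all had a higher window/ring in 1B1 -cohesin than in 1B1. The 67 kb anchor lies next to the start of the lncRNA Gm31047 and a minus-strand core, the 790 kb anchor next to a plus-strand core, and the 618 kb anchor has none within 1 bin. The 618 with 790 kb window held 161 reads in 1A2 and 220 in 1F4, 184 in 1B1 and 207 in 1B1 -cohesin. Its observed/expected was 1.05 ± 0.083, 1.16 ± 0.078 and 1.14 ± 0.085 against 1.80 ± 0.13, above all untreated values (log2 ratio to 1B1, 0.66 ± 0.15). Its window/ring was 1.51, 1.76 and 1.61 against 2.16, and its percentile among 127 windows at its separation was 59.1, 70.1 and 70.1 against 97.6.

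At 67 with 618 kb, the window held 113, 154, 117 and 106 reads. Observed/expected was 2.38 ± 0.23, 2.73 ± 0.22 and 2.15 ± 0.2 against 2.79 ± 0.28, which overlaps the untreated range within error, and the percentile among 68 windows was 77.9, 79.4 and 76.5 against 95.6. At 67 with 790 kb, observed/expected was 3.59, 3.80 and 2.79 against 3.04 ± 0.33, within the untreated range. Its window/ring was 1.77, 1.69 and 1.47 against 1.73, also within that range, and the percentile among 41 windows was 90.2, 75.6 and 56.1 against 97.6. The call in the design's list was 1 bin over (74 with 790 kb), with window/ring of 1.71, 1.99, 1.55 and 1.70, the highest mean over 1A2 and 1F4. By percentile, the 3 pairs ranked higher in 1B1 -cohesin than in any untreated line, but by window/ring this held only for 618 with 790 kb and 67 with 618 kb.

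Of the remaining calls, 618 with 982 kb has the start of the lncRNA 6030407O03Rik in its 982 kb anchor. It had a window/ring of 1.86, 1.54 and 1.15 against 2.34, but its window includes the low-coverage bin at 73913601. Without that bin it read 1.23, 1.51, 1.32 and 1.11, so that the direction of its difference was reversed. The calls at 426 with 560 kb and 342 with 560 kb had 1.72 and 1.51 in 1B1 against 1.27 and 1.37. Pale bins also lay in the rings of several windows. With these and the low-coverage bins left out, 3 windows passed the threshold: 67 with 618 kb, 394 with 944 kb and a window 1 bin before the 739 kb anchor with 394 kb. The directions of both sets were kept, in the same reads by which the sets had been sorted. The log2 window/ring ratio of 1B1 -cohesin to 1B1 was then -0.19, -0.40 and -0.26 for the first set and 0.18, 0.26 and 0.43 for the second. With all bins kept, the ratios were -0.42 ± 0.24, -0.51 ± 0.23 and -0.23 ± 0.19 for the first set. For the second they were 0.24 ± 0.22, 0.24 ± 0.23 and 0.42 ± 0.16. Only 394 with 944 kb and 618 with 790 kb differed by more than 2 counting errors. Assignment of the pairs to 2 sets was made after their values were seen, and the difference between the sets was not tested.

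**Figure D5:**
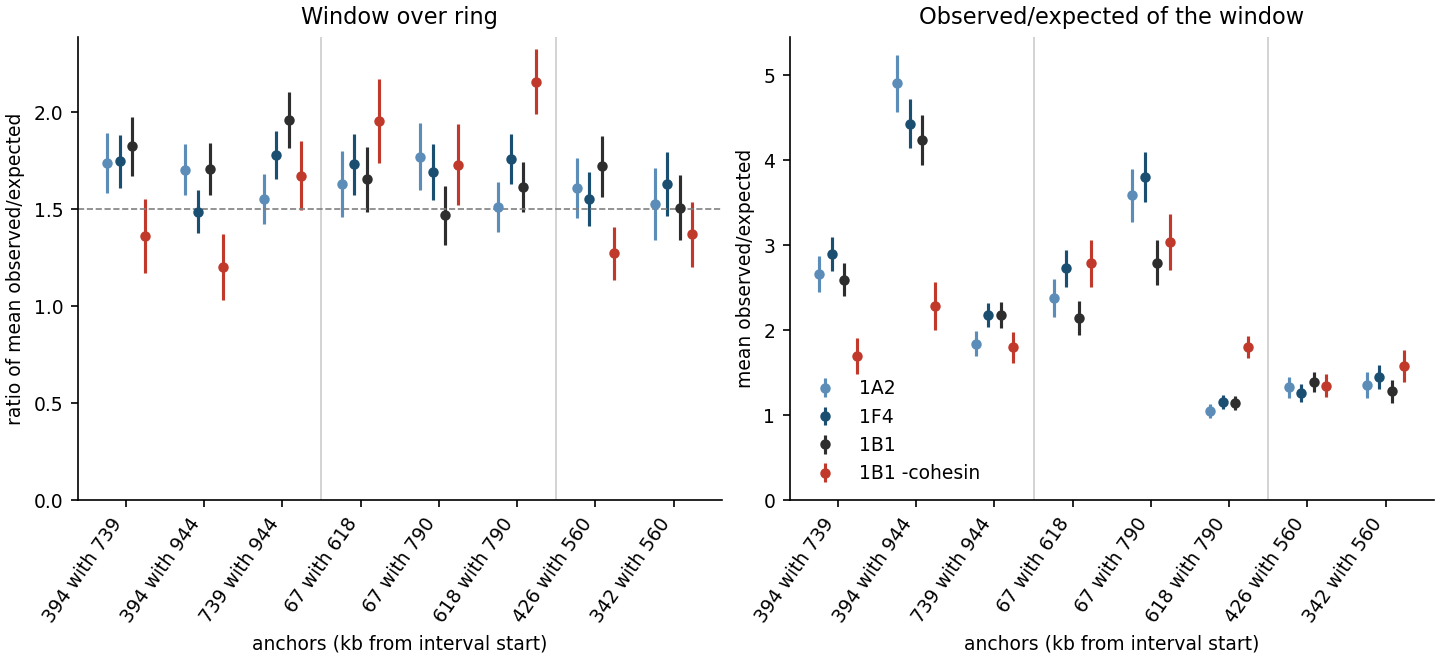
Window/ring ratio (left) and observed/expected (right) of 8 focal contacts in the 4 libraries, with counting errors; anchors are in kb from the interval start, and the dashed line marks the threshold of 1.5. In the first group of 3, 1B1 -cohesin is below 1B1, in the second group it is above 1B1, and at 618 with 790 kb it is the highest of the 4 libraries in both panels.

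Anchors of the first set also contacted the upstream edge, which lies just outside the interval. The window of the Igfbp5 boundary bin with the 394 kb anchor held 449 reads in 1A2 and 583 in 1F4, 428 in 1B1 and 77 in 1B1 -cohesin, with observed/expected of 5.66, 6.10 and 4.76 against 1.57 (log2 ratio to 1B1, -1.60 ± 0.18). With the 944 kb anchor, 953.6 kb away, it was 15.3, 17.0 and 11.2 against 4.75. With the 739 kb anchor it was 8.75, 10.2 and 7.76 against 3.33 (-1.22 ± 0.2), so that all 3 contacts were lower in 1B1 -cohesin than in any untreated line. Of the other set, the edge's contact with the 67 kb anchor had 1.25, 1.19 and 1.04 against 1.76 (0.76 ± 0.099), above all untreated lines. That with the 618 kb anchor had 3.78, 3.73 and 2.86 against 2.60 (-0.14 ± 0.2), and that with the 790 kb anchor 5.38, 4.99 and 4.73 against 3.56 (-0.41 ± 0.18). The paired cores at the edge are on the plus strand, and those in or beside the 67, 394 and 944 kb anchors are on the minus strand and face them, so that facing cores went with both a higher and lower contacts.

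Contacts of the Tnp1 start reach much farther downstream than upstream within the interval, so the levels of the 2 sides are not comparable over all separations. Mean observed/expected of the bin with the start and its neighbours with interval bins at least 60 kb downstream was 1.69 ± 0.043 in 1A2 and 1.87 ± 0.045 in 1F4, 1.58 ± 0.036 in 1B1 and 1.60 ± 0.046 in 1B1 -cohesin. With interval bins upstream it was 1.05 ± 0.04, 0.952 ± 0.035, 0.990 ± 0.038 and 0.863 ± 0.042. Downstream contact did not separate the degraded library from the untreated ones, and upstream contact was below their range. At the separations both sides share (64 to 128 kb), upstream contact was 1.05, 0.952 and 1.00 against 0.897 ± 0.043 and downstream contact 0.893, 0.956 and 0.937 against 0.994 ± 0.046, with no downstream excess beyond counting error in any untreated line. Contacts of the 944 kb anchor with the interval upstream of it were 2.57 ± 0.045, 2.81 ± 0.045 and 2.37 ± 0.039 against 1.82 ± 0.044. These reach longer separations, where the interval's observed/expected was higher, so their level is not comparable with that of the Tnp1 start.

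Contact with the flanks was lower on the Tns1 side than on the Igfbp5 side. Over separations of 60 to 960 kb, the 10978 pairs joining it to the 844.8 kb of captured sequence upstream had a mean observed/expected of 1.02 in each untreated line and 0.859 ± 0.006 in 1B1 -cohesin (log2 ratio to 1B1, -0.24 ± 0.013). The 11110 pairs joining it to the region downstream had 0.566, 0.511 and 0.556 against 0.573 ± 0.0056. Over these separations, contact with the upstream flank was thus below the untreated range relative to the expected value, whereas in the squares of 128 kb next to the Igfbp5 edge insulation was weaker in 1B1 -cohesin, as given above. On the Tns1 side, contact at these separations in 1B1 -cohesin was within counting error of 1A2 (0.566 ± 0.0051), the highest untreated line. The direct contact between the first and last bins of the interval could not be resolved: its window held 56, 64, 54 and 23 reads, and observed/expected was 4.61 ± 1.2, 5.34 ± 1.4, 2.84 ± 0.69 and 3.49 ± 1.6. This window touches the bin at 73913601, and without it the values were 3.85, 4.50, 3.42 and 1.97. It also holds a pale bin, and without both kinds of bin the values were 6.29, 5.12, 4.82 and 2.77 on 47, 44, 44 and 17 reads, with 1B1 -cohesin the lowest in both cases.

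In observed/expected, fewer windows of the interval than of the region passed a 1.5-fold difference, but the interval was also more deeply covered. Of 10423 interval windows with at least 50 reads in 1B1 and 1B1 -cohesin together, 4.81% were at least 1.5-fold higher after degradation, against 11.6% over the whole region, and 7.92% were at least 1.5-fold lower, against 11% over the region. The median window held 186 reads in the interval and 106 in the rest. Among windows with at least 200 reads, 4.04% of interval windows were higher and 4.02% lower, against 5.92% and 10.1% in the rest. The comparison of 1B1 with 1A2 gave 1.17% higher (3.58% over the region) and 1.75% lower (2.82%). For 1B1 against 1F4 the shares were 0.470% higher (4.13%) and 3.01% lower (2.34%), and for 1F4 against 1A2 they were 1.68% higher (2.65%) and 0.652% lower (3.75%). Both shares for degradation exceeded those between any 2 clones, and at 200 reads or more the largest share between clones in the interval was 1.20%. These shares rest on division by each library's expected value. In scaled contact, 0.902% of the interval's windows were higher after degradation (3.44% over the region) and 33.4% were lower (32.3%).

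The windows with the largest ratios all touched 1 bin. The 3 largest falls and 3 largest rises in observed/expected all included the low-coverage bin at 73913601, and their counting errors were 0.39 to 0.54 on the log2 scale. With low-coverage bins left out, the 3 largest falls were 73280001 with 73894401 (log2 ratio -1.35 ± 0.31), 72934401 with 73312001 (-1.26 ± 0.23) and 72972801 with 73670401 (-1.25 ± 0.36). The second of these held 186 reads in 1A2 and 245 in 1F4, 217 in 1B1 and 52 in 1B1 -cohesin, with observed/expected of 2.88, 3.31 and 3.08 against 1.29. It joins the plus-strand core at 72938745, in the first bins of the interval, to the minus-strand core in the 394 kb anchor. The other falls had no core at either end. The 3 largest rises joined 73094401 to 73478401 (1.28 ± 0.28), 73126401 to 73369601 (1.07 ± 0.25, or 1.21 ± 0.28 without the pale bin in its window) and 73177601 to 73401601 (1.03 ± 0.24), all between the first and second subdomains. The second of these rises had cores at both ends, all on the plus strand, and the others had none. The last lies beside the starts of the lncRNAs Gm31197, Gm31254 and Gm31344. In all 3, 1B1 was the lowest of the untreated lines, and as extremes they are a description.

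Across the whole interval, the 3 untreated maps resembled each other more than any of them resembled the degraded map. Pearson's r of log2 observed/expected over 10434 overlapping windows was 0.947 for 1A2 with 1F4, 0.933 for 1A2 with 1B1 and 0.941 for 1F4 with 1B1. With 1B1 -cohesin it was 0.796, 0.808 and 0.787 for 1A2, 1F4 and 1B1, although 1B1 is the same clone. Spearman's rho gave 0.927 to 0.939 and 0.771 to 0.796. The difference was not particular to the interval. Over 63474 windows of the captured region, r was 0.866 to 0.878 among untreated lines and 0.696 to 0.705 with 1B1 -cohesin. The degraded map also held fewer interval reads at these separations, 104562 against 139512 to 172284, and the effect of depth on r was not tested. Windows share bins and reads, so these are descriptions.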

How the data were processed

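Per the labels and the study's methods, the authors mapped read pairs with HiC-Pro 2.11.4 to mm9, recovered chimeric reads, kept unique valid pairs within the target regions and balanced 6.4 kb bins by iterative correction (ICE). The deposited values are a balanced contact signal per bin pair. The study's methods mention no molecular identifiers. Reads were recovered by solving 1 factor per bin: in each library 100% of values then lay 0.05 or less from a whole number, giving 1648754, 2102384, 1677423 and 1848616 reads on chromosome 1 in 1A2, 1F4, 1B1 and 1B1 -cohesin. Errors propagate these reads only and leave out the error of balancing. Bins empty in any library were left out. Measures were computed with Python 3.11.15, NumPy 2.4.6 and SciPy 1.17.1 and tested on simulated maps.

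Groups came from the sample labels. Named sites were all boundaries within 10 bins of the interval, the 6 focal contacts ranked first by window/ring in 1A2 and 1F4, annotated genes, the Tnp1 bin, the corner and the 3 largest falls and rises; other sites were chosen after their values were seen. The interval, lists and rules were chosen with earlier results of these data known. Alternatives covered balancing, expected value, separations, square and window sizes, thresholds and left-out bins. RNA, CTCF binding and RAD21 levels were not analysed here.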

Additional observations from a re-analysis of the deposited data

How the results depend on the processing

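No paired analysis was possible because each group had 1 library, and for the same reason no replicate could be left out. Values compare 1B1 -cohesin with 1B1. Of 69 alternatives, 31 moved a result by less than its 95% counting interval or a count by less than 1.5 times; 23 alternatives were chosen after seeing the data. The interval's observed/expected (log2 ratio -0.096) was -0.17 on unbalanced reads, -0.13 with the expected value taken outside the interval, -0.29 without division and 0.12 at 60 to 300 kb, a reversal at short range. The slope difference (-0.292) was -0.227 over 50 to 900 kb, and scaled contact at 250 to 500 kb (-0.51) was -0.75 when scaled to the sum over all separations. The median boundary difference (0.43) was 0.31 on unbalanced reads, 0.58 with squares of 10 bins, 0.51 when called in 1B1 and 0.61 when called in 1B1 -cohesin, and the number of boundaries (4) was 2 with squares of 30 bins and 2 when called in 1B1 -cohesin. The subdomain contrast difference (-0.15) was -0.30 at matched separation. The median focal contact ratio (0.019) was reversed to -0.050 with 5 by 5 windows, -0.44 with at least 200 reads, -0.29 when called in 1B1 alone, -0.17 without low-coverage bins and -0.24 without low-coverage and pale bins, so it has no stable sign. The number of focal contacts (8) was 78 on unbalanced reads, 3 with 5 by 5 windows, 1 with at least 200 reads, 28 at a threshold of 1.3, 19 when called in 1B1 alone and 3 without low-coverage and pale bins. The number of higher windows (501) was 250 on unbalanced reads, 68 at 2-fold, 185 with at least 200 reads, 94 without division, 279 without low-coverage bins and 207 without pale bins as well. The number of lower windows (825) was 116 at 2-fold, 184 with at least 200 reads, 3483 without division and 503 without low-coverage and pale bins. The correlation of 1B1 with 1B1 -cohesin, minus the mean among untreated lines (-0.154), was -0.276 at 60 to 300 kb, -0.116 with 5 by 5 windows, -0.123 without low-coverage bins and -0.133 without pale bins as well. Causes were not tested. Depth limits single windows: those with about 100 reads have counting errors near 0.2 on the log2 scale.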
